A study of Mus musculus with 19 samples.

Results

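The antigen presentation genes described here are 10 genes given by symbol and looked up by their Ensembl identifiers, out of 24130 genes listed in at least 1 library of the primary somatosensory cortex (S1). Of these, 7 belong to the MHC class I pathway (H2-K1, H2-D1, H2-T23, B2m, Tap1, Tap2 and Tapbp) and 3 to the class II pathway (H2-Aa, H2-Ab1 and Cd74). Every library listed all 10, and all 10 passed the minimum mean of 0.1 FPKM (fragments per kilobase of model, scaled for the number of mapped fragments) that left 17844 genes to test. RNA came from male C57BL/6 mice (C57BL/6J in the study's text) aged 56 days, with no treatment and no genetic change named in the labels. S1 was dissected from the surface downward into 6 segments. A held mostly layers 1 to 3, B layer 4, C and D the upper and lower part of layer 5, E layer 6 and F layer 6b. Layer 4 was sequenced as 2 libraries (B1 and B2) of 4 pooled mice each, and every other segment as 1 library of 8 pooled mice. In the study's text the segments come from the same 8 mice, and B1 and B2 are 2 litters of 4. Segments were cut by hand and hold every cell type of their depth, so the labels say of each only which layer it mostly contains. In such tissue, fewer cells of a type and less RNA per cell cannot be told apart.

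MHC class I molecules sit on the surface of nearly all nucleated cells and show peptides made inside the cell to CD8 T cells. Each is a heavy chain, here H2-K1 or H2-D1 (classical) or H2-T23 (the nonclassical Qa-1), paired with the light chain beta-2 microglobulin from B2m. Tap1 and Tap2 form the transporter that moves peptides into the endoplasmic reticulum, and tapasin from Tapbp holds the empty heavy chain at that transporter. Class II molecules, built from an alpha chain such as that of H2-Aa and a beta chain such as that of H2-Ab1, show peptides taken up from outside to CD4 T cells. Cd74, the invariant chain, blocks their groove until they reach the endosome. Class II is normally found on professional antigen presenting cells, whereas class I genes are also transcribed in neurons, where their products take part in synapse remodeling.

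All but 2 of the genes lie on chromosome 17, on which the mm9 positions of the tables run from Tapbp (chr17:34056423-34066235) through H2-K1 (chr17:34132973-34137229), Tap1 (chr17:34324679-34334170), Tap2 (chr17:34341159-34353266), H2-Ab1 (chr17:34400185-34406355), H2-Aa (chr17:34419700-34424745) and H2-D1 (chr17:35400039-35404440) to H2-T23 (chr17:36166921-36169646). B2m lies on chromosome 2 (chr2:121973422-121978819). Bases upstream of the start of 5 members are printed because H2-K1, H2-D1 and H2-T23 are heavy chains of one family with unlike layer profiles, B2m is their shared light chain, and H2-Aa stands for class II. Each line holds the 250 bases before the start, from RefSeq on GRCm38.p6, read 5′ to 3′ on the strand of the gene. Capitals mark matches on either strand to CCAAT, the box bound by NF-Y, and to a pair of patterns for the interferon-stimulated response element, its core (GAAA, any 2 bases, GAAA) and the shorter GAANNGAAA. The core was added after the windows had been seen.
H2-K1, chr17:34000348-34000597 (minus strand): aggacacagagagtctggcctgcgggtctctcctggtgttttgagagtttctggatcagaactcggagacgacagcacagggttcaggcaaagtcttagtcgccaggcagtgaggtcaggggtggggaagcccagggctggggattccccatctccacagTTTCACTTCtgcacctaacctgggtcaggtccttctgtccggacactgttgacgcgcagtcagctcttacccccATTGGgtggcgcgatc
H2-D1, chr17:35262844-35263093 (plus strand): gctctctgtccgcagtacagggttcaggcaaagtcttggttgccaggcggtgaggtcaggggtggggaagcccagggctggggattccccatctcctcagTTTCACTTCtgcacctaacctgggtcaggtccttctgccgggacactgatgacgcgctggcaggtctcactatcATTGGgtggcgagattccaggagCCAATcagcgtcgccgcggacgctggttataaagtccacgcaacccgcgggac
H2-T23, chr17:36032702-36032951 (minus strand): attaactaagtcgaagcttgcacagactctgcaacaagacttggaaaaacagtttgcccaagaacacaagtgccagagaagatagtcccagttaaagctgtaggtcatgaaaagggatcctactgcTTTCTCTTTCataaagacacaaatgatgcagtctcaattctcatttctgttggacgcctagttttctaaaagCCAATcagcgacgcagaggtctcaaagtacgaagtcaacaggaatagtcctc
B2m, chr2:122147437-122147686 (plus strand): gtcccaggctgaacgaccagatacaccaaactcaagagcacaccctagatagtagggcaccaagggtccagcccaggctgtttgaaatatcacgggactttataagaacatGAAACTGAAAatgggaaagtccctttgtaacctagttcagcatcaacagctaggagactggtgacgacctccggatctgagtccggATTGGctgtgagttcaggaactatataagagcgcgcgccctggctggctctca
H2-Aa, chr17:34287824-34288073 (minus strand): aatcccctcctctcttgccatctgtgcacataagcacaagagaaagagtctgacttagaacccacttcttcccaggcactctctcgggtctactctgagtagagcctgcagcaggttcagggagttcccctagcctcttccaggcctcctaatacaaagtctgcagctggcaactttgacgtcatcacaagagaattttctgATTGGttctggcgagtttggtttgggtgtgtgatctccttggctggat
RefSeq entries were matched for 7 of the 10 members, and Tap2, H2-Ab1 and Cd74 were not among them. CCAAT stood in all 7, against 33.8% of 32851 promoters of the same length. The shorter interferon pattern was matched in H2-K1 and H2-D1, against 6.31% of all promoters, in both through the letters printed above as TTTCACTTC. The core was matched in H2-T23 and B2m, against 2.98% of all promoters. Neither was matched in Tap1, Tapbp or H2-Aa. These matches describe the letters of the window and say nothing of binding.

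Between 20457 and 21547 genes were listed per library, and the estimated depth was 31.3 M fragments in A, 74.9 M in B2 and 41.6 to 55.4 M in the others. The deposited intervals are those of cufflinks for 95% and cover the estimate within a library, without the variation between mice, for which B1 against B2 (n = 2) is the sole measure. The intervals of B1 lay apart from those of B2 for 48.5% of the genes tested, so intervals that lie apart are a loose criterion here. Markers of neurons were plentiful in every library, with a summed FPKM over 9 genes of 2622 in A and 3157 to 4054 in the others. Library A stood apart from the rest in markers of the pial surface and of blood, whose values are given with class II below. Mitochondrial genes took 21.8% of the summed FPKM in A and 18.2% in B2, against 5.03% to 9.78% in the other 5 libraries.

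H2-T23 had the strongest layer profile of the class I genes. A had 3.82 FPKM, B1 and B2 had 4.61 and 3.22, C and D had 4.64 and 12.2, and E and F had 16.8 and 15.0. The 95% intervals ran from 3.31 to 4.33 (A), 4.10 to 5.11 (B1), 2.88 to 3.55 (B2) and 4.10 to 5.19 (C) at superficial depths, and from 11.4 to 13.1 (D), 15.8 to 17.8 (E) and 14.1 to 15.9 (F) below. Lower layer 5, layer 6 and layer 6b thus all lay above the 4 more superficial libraries with no overlap, and the step fell between C and D, at 2.64-fold. C and D had intervals apart for 2 of 10 members, H2-T23 and B2m, against 22.6% of genes tested. The full separation of H2-T23 was met by 3.61% of all genes tested and by no other member. It was chosen as a description after the values had been seen and carries no test. Mean FPKM was 4.07 ± 0.686 (SD, n = 4 libraries) in A to C and 14.7 ± 2.31 (SD, n = 3 libraries) in D to F, a ratio of 3.61. Estimated fragments ranged from 117 in A to 713 in F.

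Across depth, linear and quadratic terms of segment position were fitted on log2(FPKM + 0.1) with limma. H2-T23 rose toward F by 0.51 per segment on the log2 scale (limma adjusted p = 0.0119). Of the 10 members 3 were called at an adjusted p of 0.05, against 36.5% of all genes tested (28.3% toward F and 8.20% toward A), so the share of members called was near the background. Without library A the limma adjusted p of H2-T23 was 0.0518, and the trend was called with each of the other libraries left out. Its direction and call were also kept with libraries rescaled by the median of ratios (limma adjusted p = 0.0376, slope 0.42) and after correction for GC content (0.0233, slope 0.48). With a separate term for each segment, which leaves 1 residual degree of freedom, limma called none of the 17844 genes, and 2881 had an unadjusted p under 0.05.

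De novo models gave a similar profile for H2-T23. Ensembl lists 1 transcript (ENSMUST00000102678), and a spliced de novo model of 247 nt within the gene (chr17:36167076-36167638) stood at 5.66 FPKM in A, 7.37 and 5.26 in the layer 4 pair, 6.32 and 18.4 in upper and lower layer 5, and 23.5 and 19.4 in layers 6 and 6b. In B1 and D its interval began at 0, so for those libraries the de novo value is weakly determined. H2 genes are close paralogs, and fragments that match several of them can be divided in ways the tables do not show, so all heavy chain levels are uncertain to that extent. An antisense gene, A930015D03Rik, spans H2-T23 in GENCODE M21 but shares 0 exonic bases with it.

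Markers of oligodendrocytes also rose toward F, with all 10 genes of the list called (median log2 F over A 4.72). Their summed FPKM was 342 in A, 870 and 884 in layer 4, 1702 and 2279 in C and D, and 4234 and 12916 in E and F. That sum grew in every segment and most from E to F. Markers of microglia summed to 107 to 202, lowest in B2 and highest in F. The part of these cells in the profile of H2-T23 was not tested.

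The classical heavy chains had flatter profiles. For H2-D1, A had 10.3 FPKM, B1 and B2 had 14.7 and 10.9, C and D had 12.3 and 13.4, and E and F had 10.02 and 13.4. The range over all libraries was 1.47-fold, and the gap between the layer 4 libraries was nearly as wide, since the intervals of B1 (12.7 to 16.7) and B2 (10.3 to 11.4) were apart. The trend was not called (limma adjusted p = 0.868). H2-K1 was highest at both ends of the depth axis, with 9.18 FPKM in A and 8.13 in F against 5.02 and 5.98 in B1 and B2, 5.32 in both C and D, and 4.46 in E. The interval of F (6.35 to 9.91) lay above that of E (3.36 to 5.55), as did that of A (6.29 to 12.1). With libraries sorted by level no neighbors had intervals apart, and the trend missed the threshold (limma adjusted p = 0.0630), although it passed after rescaling by the median of ratios (0.0260) and without B1 (0.0327). A part of the value of A came from a transcript of the H2-K1 locus, ENSMUST00000046131, whose identifier GENCODE M21 gives to Gm7030. It had 2.47 FPKM in A, no entry in B1 and E, and 0.328 to 1.014 in the other libraries. With that transcript left out, H2-K1 stood at 6.71 FPKM in A, 4.45 to 5.02 in B1 to E and 7.35 in F.

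As a share of the summed FPKM of the 3 heavy chains, H2-T23 took 16.0% to 20.9% in A to C, 39.6% and 53.8% in D and E, and 41.1% in F. The sum itself was 20.1 to 24.4 in A to C and 30.9 to 36.5 in D to F. The classical pair alone summed to 14.5 to 21.5 with no such step. Among these 3 heavy chains the laminar difference was therefore carried by H2-T23, as a comparison of levels per length. Further heavy chain genes are described below.

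B2m was the most abundant member, with a mean of 48.6 FPKM. Segment A had 34.8 FPKM, B1 and B2 had 45.9 and 64.6, C and D had 58.4 and 49.8, and E and F had 43.4 and 42.9. The lowest interval was that of A (32.8 to 36.7) and the highest that of B2 (62.7 to 66.5), while B1 (44.0 to 47.9) overlapped D, E and F. Thus the 2 layer 4 libraries differed by more than C did from F, and the trend was not called (limma adjusted p = 0.247). After correction for GC content it was called as falling toward F (limma adjusted p = 0.0314). B2m has a GC content of 41.2%, against 51.4% to 58.9% for the other members. The log2 ratio of B2 to B1 fell with GC content over 12633 genes (Spearman rho = -0.551, a description across genes that share both libraries). That ratio was 0.49 for B2m, 0.69 for Cd74, 0.45 for H2-Ab1, 0.28 for H2-Aa and 0.25 for H2-K1. It was negative for H2-D1 (-0.44), H2-T23 (-0.50), Tap1 (-0.17), Tap2 (-0.66) and Tapbp (-0.23). The part of GC content in the gap of B2m was not tested. The ratio of B2m to the summed heavy chains ranged from 1.18 in F to 3.22 in B2, with 1.49 in A and 1.89 in B1.

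**Figure D1:**
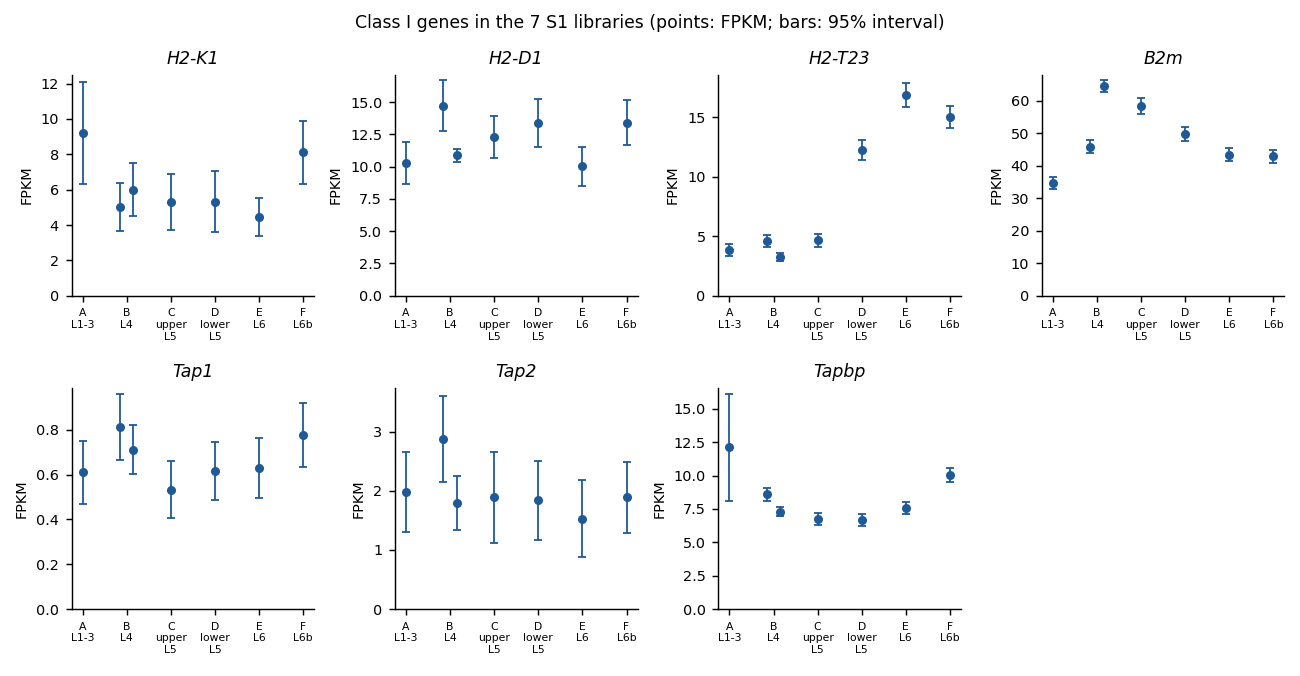
FPKM (vertical axis, linear, from 0) of the 7 class I genes against segment (horizontal axis, superficial to deep). Points are libraries, with B1 left and B2 right at B, and bars are the 95% intervals of cufflinks. H2-T23 lies at 3.22 to 4.64 FPKM in A to C and at 12.2 to 16.8 in D to F, and B2m peaks in B2 at 64.6.

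The transporter genes were low and had no called trend. Tap1 had 0.531 to 0.812 FPKM over the 7 libraries, lowest in C and highest in B1, on an estimated 50 to 135 fragments. Tap2 had 1.53 to 2.88 FPKM, lowest in E and highest in B1. Neither was called (limma adjusted p = 0.825 for Tap1 and 0.648 for Tap2), and no neighbors in the order of their levels had intervals apart. The widest interval was 43.8% of the mean for Tap1 and 78.1% for Tap2. For Tap1 the interval of B1 (0.666 to 0.959) lay above that of C (0.404 to 0.658).

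Tapbp was called by the trend (limma adjusted p = 0.0267), but its profile was bowed rather than sloped. A had 12.1 FPKM, B1 and B2 had 8.60 and 7.29, C and D had 6.77 and 6.68, and E and F had 7.58 and 10.04. Levels were thus lowest in layer 5 and higher at both ends, and the linear term was only -0.035 per segment on the log2 scale. The interval of F (9.52 to 10.6) lay above those of B1 to E, whereas that of A (8.13 to 16.1) was wide and overlapped both B1 and F. In A alone a second transcript, ENSMUST00000114350, was listed at 1.71 FPKM (interval 0 to 4.53), and the main transcript was at 10.4 FPKM there. The call was lost without A (adjusted p = 0.127 with a linear term of 0.058), without C (0.0871), without D (0.0856), without E (0.0690) or without F (0.0638), all from limma. In GENCODE M21 Tapbp shares 904 exonic bases with Gm19412 on the other strand, Tap1 shares 212 with Psmb9 and Tap2 shares 533 with Gm15821. The library protocol names no step that keeps strand, so fragments from those bases cannot be told apart.

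Class II genes had their highest levels in the most superficial segment and were low in all others. Cd74 lies outside the MHC, at chr18:60963502-60972300 of mm9. Cd74 had 3.60 FPKM in A, 0.413 and 0.731 in B1 and B2, 0.655 and 0.665 in C and D, and 0.235 and 0.282 in E and F. H2-Aa had 1.88 FPKM in A, 0.201 and 0.266 in B1 and B2, 0.308 and 0.307 in C and D, and 0.196 and 0.200 in E and F. H2-Ab1 had 0.612 FPKM in A, 0.141 and 0.229 in B1 and B2, 0.108 and 0.0961 in C and D, and 0.167 and 0.233 in E and F. All 3 genes were highest in A, at 6.74, 8.08 and 3.97 times the median of the other 6 libraries, in the order given.

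The interval of A was 2.44 to 4.76 for Cd74, 1.49 to 2.28 for H2-Aa and 0.395 to 0.828 for H2-Ab1. In each case it lay above the intervals of all 6 other libraries, which was so for 0 of the 7 class I genes and for 13.9% of all genes tested. This criterion too was chosen after the values had been seen. Among the other libraries the intervals of H2-Aa overlapped one another, as did those of H2-Ab1, while for Cd74 the interval of E (0.121 to 0.349) lay below those of B2 (0.492 to 0.970) and C (0.442 to 0.867). Ranked by how far A lay above the next highest library on log2(FPKM + 0.1), H2-Aa was 207, Cd74 238 and H2-Ab1 972 of 17844 genes. Estimated fragments in A were 64 for H2-Aa, 22 for H2-Ab1 and 144 for Cd74, and in E they were 9, 6 and 12. One library of 8 mice stands for A, so the elevation has no replicate.

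With limma the trend was called for H2-Ab1, higher toward A (adjusted p = 0.0310), and missed for Cd74 (0.0564) and H2-Aa (0.0990). For H2-Ab1 that direction is the sign of the linear term and not a steady gradient. F (0.233 FPKM) was the highest of the other 6 libraries, and with a linear term alone the limma adjusted p was 0.449. Cd74 passed after rescaling by the median of ratios (0.0463) or without B1 (0.0111) or D (0.0444), and H2-Aa without B1 (0.0333). H2-Ab1 lost its call without A (0.215, with the linear term turned to 0.043), B2 (0.0570), C (0.0797), D (0.0835) or E (0.0546), and after the GC correction (0.0640). For Cd74, 2 transcripts shared the signal in A, at 2.32 and 1.28 FPKM. For H2-Ab1 the transcript listed was 1 in A and F and another in B1 to E, so its values do not refer to 1 model throughout.

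**Figure D2:**
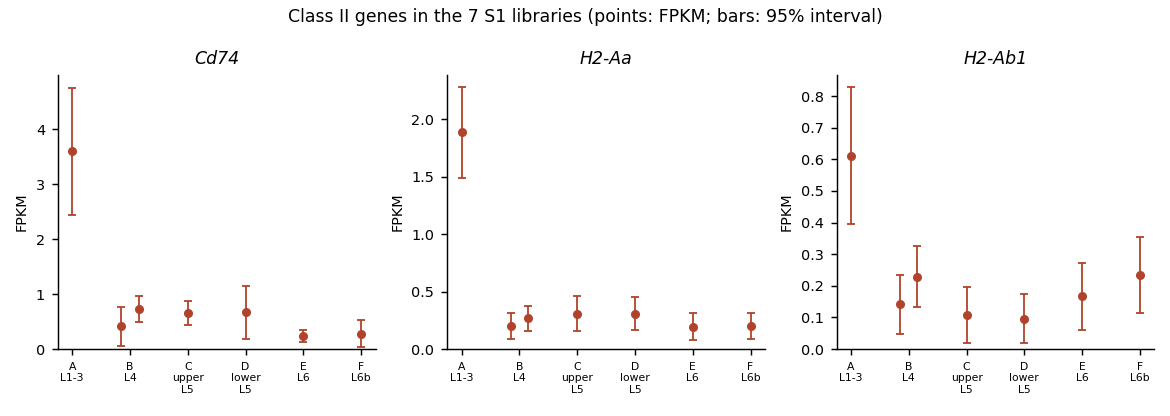
FPKM (vertical axis, linear, from 0, each panel with its own scale) of Cd74, H2-Aa and H2-Ab1 against segment. Points are libraries, with B1 left and B2 right at B, and bars are 95% intervals. In each panel A lies above the other 6 libraries with no overlap, at 3.60, 1.88 and 0.612 FPKM.

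Set side by side, the 3 class II genes were all higher in A, and the class I genes had no common end. F and A had intervals apart for 5 of 10 members, against 71.1% of genes tested. H2-T23 and B2m were higher in F (47.6% of genes tested), and H2-Aa, H2-Ab1 and Cd74 were higher in A (23.5%). The direction of B2m depended on the scale. Its log2 ratio of F to A was 0.30 as deposited, -0.24 under the median of ratios and -0.67 after GC correction. H2-T23 stayed higher in F under both (1.41 and 1.76). Between the layer 4 replicates 4 of 10 members had intervals apart (H2-D1, H2-T23, B2m and Tapbp), against 48.5% of genes tested. On log2(FPKM + 0.1), the median of F over A was 0.30 over the 7 class I genes, -2.73 over the 3 class II genes and 0.39 over all genes tested. Rescaling by the median of ratios moved the median of all genes by -0.50, to -0.10, and the class I median changed sign with it, to -0.24, whereas the class II median stayed negative at -3.18. The class I median was thus close to that of all genes on either scale, and the class II median was far below it. Without A the contrast was small, since the class II median of F over the mean of B1 and B2 was -0.15.

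Segment shares show the same contrast. Of the sum over the 6 segments, A held 60.2% for H2-Aa, 59.9% for Cd74 and 43.7% for H2-Ab1, but 6.76% for H2-T23 and 12.2% to 24.2% for the other class I genes. Summed FPKM of the heavy chains was 3.82 times that of class II in A and 16.4 to 52.4 times in the other libraries.

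**Figure D3:**
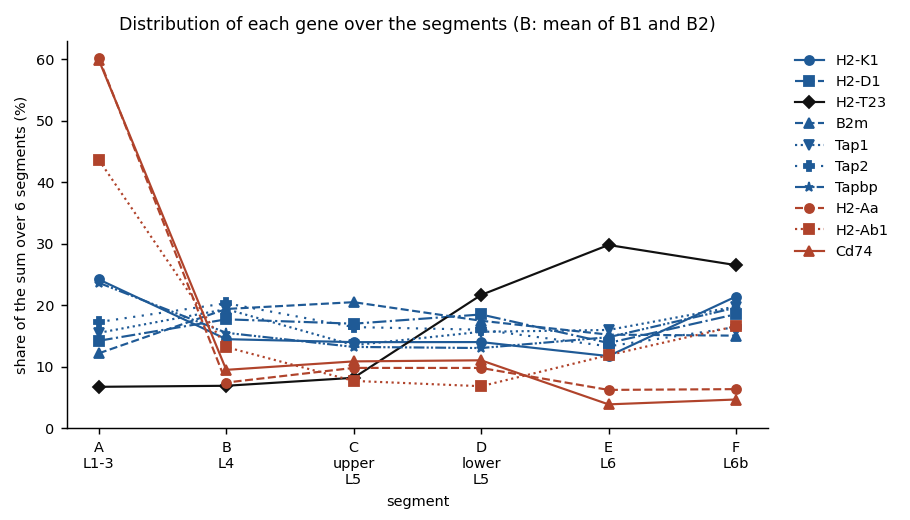
Share of each gene's summed FPKM (vertical axis, percent, B being the average of its 2 libraries) in each of the 6 segments (horizontal axis). Class II genes, in red, start at 43.7% to 60.2% in A, H2-T23, in black, reaches 29.8% in E, and the other class I genes, in blue, stay between 11.8% and 24.2%.

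Class II levels were set beside marker lists of cell types, not only of those that carry class II. Meningeal fibroblast markers summed to 47.3 FPKM in A and to 6.54 to 11.7 elsewhere, with 9 of 10 genes above all other libraries in A, led by Slc6a13, a transporter of the leptomeninges, at 7.27 FPKM in A and 0.368 to 0.761 elsewhere. Blood markers summed to 739 in A and to 66.7 to 97.3 elsewhere. Of the sum in A, the hemoglobin genes of red cells gave 272 (Hba-a1) and 462 (Hba-a2). The leukocyte genes of that list were not highest in A. S100a8 was at 0 there, and S100a9 had 0.175 FPKM in A and 0.255 in D. Border macrophage markers, of cells known to carry class II at the brain surface, summed to 3.03 in A and to 0.955 to 1.39 elsewhere. By FPKM every gene of that list but Ms4a7 and Folr2 was highest in A, such as Pf4 (0.535 in A, 0.0332 to 0.191 elsewhere). Folr2 had 0.180 in A and 0.309 in F, and Ms4a7 was at 0 in A, a value that can also stand for no entry. Only 2 of those 9 genes, Cd163 (0.122 FPKM) and Stab1 (1.16), had an interval in A above those of all other libraries. The levels were low, and 4 of 9 passed the minimum level. Microglia markers summed to 147 in A, within the range of the other libraries, but 4 of 13 (Aif1, C1qa, C1qb and Trem2) lay above all other libraries in A. Of the dendritic and lymphoid list 1 of 11 genes passed the minimum, and the summed FPKM was 1.37 in A and 0.506 to 2.14 elsewhere. Xcr1, Cd3e and Cd3g were at 0 or without an entry in at least 4 libraries, while the B cell gene Cd79a had 0.377 FPKM in A. The part of these cells, and of the mitochondrial share given above, in the class II levels of A was not tested.

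**Figure D4:**
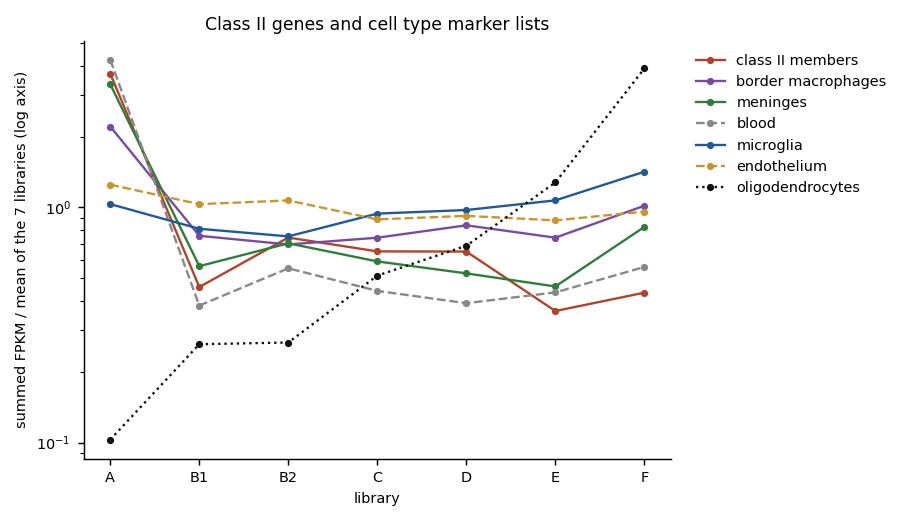
Summed FPKM of the 3 class II genes and of 6 cell type marker lists in each library (horizontal axis), divided by the mean over the 7 libraries (vertical axis, log scale). Class II, meninges, blood and border macrophages are highest in A, at 6.10, 47.3, 739 and 3.03 summed FPKM, and oligodendrocyte markers climb to 12916 in F.

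Other genes of the class II route moved both ways. H2-Eb1, a further beta chain singled out after its values were seen, was called higher toward A like H2-Ab1 (limma adjusted p = 0.0310). It had 1.92 FPKM in A, 0.268 to 0.492 in B1 to E and 0.598 in F. Its interval in A did not lie above those of all 6 other libraries. That was so for 1 gene of the list, H2-DMa, at 11.3 FPKM in A and 3.35 to 4.97 elsewhere, and for 13.9% of all genes tested. Of the lysosomal proteases, Ctss, which degrades the invariant chain, rose from 6.77 FPKM in A to 26.8 in F (limma adjusted p = 0.00512), and Lgmn from 20.8 to 66.3 (limma adjusted p = 0.00710). Both are also abundant in microglia. Of the 8 genes tested on this list, 2 were called toward F, 1 toward A and 5 not at all. Their median log2 F over A was -0.10. Over all genes 28.3% were called toward F and 8.20% toward A, with a median of 0.39. Under the median of ratios 2 genes of the list were called toward F and 3 toward A, H2-DMa and Ifi30 having joined H2-Eb1. Over all genes the median of ratios gave 2513 calls toward F and 2543 toward A of 17844, and the GC correction gave 2145 and 2359 of 16690. These shares, counts and this median over all genes are the background for the lists that follow.

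Of 15 further class I heavy chain genes, 2 were called toward F, 2 toward A and 11 not at all, with a median of 0.53. The 26.7% called was below the 36.5% of all genes. H2-T10, a neighbor of H2-T23 in the nonclassical T region, had 1.55 FPKM in A, 3.15 and 3.31 in B1 and B2, 4.87 and 6.20 in C and D, and 5.95 and 4.21 in E and F (limma adjusted p = 0.00362). H2-T22, singled out after its values were seen as a close paralog of H2-T10, went from 2.66 in A to 6.14 in D and 5.12 in F (0.0180). H2-M5 fell from 1.40 FPKM in A to 0.120 in F (limma adjusted p = 0.0152). Fcgrt, the other gene called toward A, had 13.1 FPKM in A and 4.76 to 7.15 elsewhere (limma adjusted p = 0.0125). H2-T10, H2-M5 and Fcgrt kept their calls under the median of ratios and the GC correction, and H2-T22 under neither. For H2-M5 and Fcgrt, 2 of the 15 genes, the interval of A lay above those of all 6 other libraries, against 13.9% of all genes.

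In the peptide loading list 4 of 10 genes rose, against 28.3% of all genes, and 0 fell, against 8.20% (median 0.64, and 7 genes at an unadjusted p under 0.05 in limma). Among them were Pdia3, the disulfide isomerase of the loading complex, from 28.1 FPKM in A to 86.7 in F (limma adjusted p = 0.00915), and Erap1, the peptide trimming protease, from 0.316 to 1.67 (0.0353). Only Pdia3 of the 4 kept its call under the median of ratios, where 1 gene, Tapbpl, fell. In the immunoproteasome list Psme1, a subunit of the proteasome activator, was called toward A (limma adjusted p = 0.0355). It had 20.4 FPKM in A, 4.97 to 8.27 in B1 to E and 7.16 in F. The other 3 genes tested were not called (median -1.42), against 8.20% of all genes called toward A. For 3 of the 4 genes tested the interval of A lay above those of all 6 other libraries, against 13.9% of all genes. Under the median of ratios Psmb8 and Psmb10 were called toward A as well, and after GC correction Psmb8. The constitutive proteasome had 1 of 14 genes called, Psma1, from 19.7 to 40.0 FPKM (limma adjusted p = 0.0366), a call not kept under either scaling (list median -0.30). In that list too the interval of A often lay above those of all 6 other libraries, for 6 of 14 genes. A high level in A was thus not particular to the immunoproteasome list.

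Among 16 regulators of MHC genes 8 were called toward F and 1, Irf1, toward A (median 0.96), against 28.3% and 8.20% of all genes. These became 2 and 1 under the median of ratios and 3 and 2 after GC correction. The profile of Irf1 was bowed, with 3.40 FPKM in A, 1.35 to 1.92 in B1 to E and 2.39 in F (slope -0.049). Nfya, a subunit of the factor that binds the CCAAT box, rose from 1.95 FPKM in A to 7.91 in F (limma adjusted p = 0.00330) and kept its call under both scalings. Ifngr1, a chain of the interferon gamma receptor, rose from 1.65 to 6.24 (limma adjusted p = 0.0170, slope 0.29), a call lost under the median of ratios (0.0592, slope 0.20). The class II transactivator gene Ciita was at 0.00756 to 0.0776 FPKM, under the minimum. Interferon response genes had 3 of 18 called higher toward F and 2 toward A (median 0.24), against 28.3% and 8.20% of all genes, but 0 and 4 under the median of ratios and 0 and 3 after GC correction. Ifit2 stood at 1.003 FPKM in A and 3.199 in F (limma adjusted p = 0.0220) and Ifih1 at 0.534 and 1.497 (0.0234), neither called after rescaling. The receptor list holds receptors and adaptors for both MHC classes, and 4 of its 9 listed genes were tested (Cd247, Tyrobp, Cd4 and Lag3). Limma called 0 of them at an adjusted p of 0.05, and 2 had an unadjusted p under 0.05. Tyrobp stood at 12.04 FPKM in A and 9.65 in F (limma adjusted p = 0.108) and Lag3 at 3.85 and 1.88 (0.0612).

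By Pearson correlation of log2(FPKM + 0.1) over the 7 libraries, 13158 genes that averaged 1 FPKM or more were ranked by likeness to the most abundant member of each class. For B2m they were Osbpl1a (r = 0.976), Zfp810 (0.955), A530017D24Rik (0.953), Orc2 (0.951) and Dgka (0.948). For Cd74 they were Crip1 (r = 0.990), Atox1 (0.982), Mapk1ip1 (0.982), Ndufb10 (0.981) and Tpm2 (0.979). Crip1 had 22.5 FPKM in A and 1.49 to 5.43 in the others. All of these points share libraries and depth, and for Cd74 library A lies far from the other 6.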

How the data were processed

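RNA of S1 segments was sequenced as paired ends after poly(A) selection, fragmentation and random-hexamer priming. Per the submitters' processing notes, the authors mapped reads to mm9 with TopHat 1.0.13 and estimated FPKM with Cufflinks 0.8.3. The FPKM values, as deposited by the authors, are fragments per kilobase of Ensembl or de novo model, scaled for the number of mapped fragments, with bounds for 95%. The coverage that the authors deposited for transcripts is fold read coverage without depth scaling, and with FPKM and 50 bases per end it served to estimate depth. A gene without an entry in a library was set to 0. The 12 dorsal and lateral samples were not used here.

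The genes whose mean over the 7 libraries reached 0.1 FPKM were fitted with limma 3.58.1 (R 4.3.3) on log2(FPKM + 0.1), as linear and quadratic terms of segment position, 4 residual degrees of freedom and empirical Bayes with a mean-variance trend. The moderated F-test was adjusted by Benjamini-Hochberg over all 17844 genes, and direction is the sign of the linear term. The fit was tested on simulated data. FPKM are not whole-fragment counts, so no count model was used, and fold changes of low genes on the log2(FPKM + 0.1) scale are understated. Alternatives were pseudocounts of 0.01 and 1, median-of-ratios scaling, GC correction, other filters, other trend terms, wider intervals, transcript sums, and each library left out. Symbols and overlaps came from GENCODE M21 by identifier, since its build differs from mm9.

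The members and lists were chosen with earlier results of these data known. Named were the 10 members, the 5 genes most correlated with the most abundant member of each class, the 2 called genes with the largest absolute log2 ratio of F to A in each of 8 pathway lists (where none was called, the 2 with the highest mean), and in each of 10 cell type lists the genes with the highest and lowest ratio. All other names were chosen after their values were seen.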

Additional observations from a re-analysis of the deposited data

How the results depend on the processing

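The number of members called by the limma trend, 3, became 5 under median-of-ratios scaling (adding H2-K1 and Cd74), 1 of 4 tested among genes with narrow intervals (H2-T23), 1 with a linear term alone (H2-T23) and 0 with a term for each segment, where 3 members had an unadjusted p under 0.05. Leaving out each library in turn gave 0 to 6 members, with 0 without A (2 at an unadjusted p under 0.05), 6 without B1, 1 without C or E and 2 without B2, D or F. It was 3 under the other settings, which were H2-T23, Tapbp and B2m after GC correction, where H2-Ab1 lost its call (0.0640), and H2-T23, Tapbp and H2-Ab1 otherwise. Tapbp (adjusted p = 0.127) and H2-Ab1 (0.215) turned direction and lost their calls without A, the highest values with a library left out, and the lowest were 0.0143 and 0.0181, both without B1. Over all genes, 6521 calls became 2662 with a linear term alone, 0 with a term for each segment (2881 at an unadjusted p under 0.05), and 1402 (without A) to 9200 (without B1) with a library left out. The share of genes called was 36.5% in the main fit, 28.3% under median-of-ratios scaling and 27.0% after GC correction. It was 44.2% among genes with narrow intervals and 14.9% with a linear term alone. Calls toward F were 77.5% of all calls, but 49.7% under median-of-ratios scaling and 47.6% after GC correction.

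The class I median of log2 F over A, 0.30, was -0.24 under median-of-ratios scaling, -0.11 after GC correction and -0.061 for E and F over A and B. The class II median, -2.73, was -3.18 with a pseudocount of 0.01, -1.27 with 1, -3.18 under median-of-ratios scaling, -3.27 after GC correction, -1.96 for E and F over A and B, -0.15 for F over the mean of B1 and B2 and -3.09 for summed FPKM. The 5 members with intervals of A and F apart became 2 for F against B1. The causes of the changes between settings were not tested.

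No paired analysis was possible because the labels number replicates in layer 4 only. Each segment other than B has 1 library, and the 9 to 21 estimated fragments behind H2-Aa outside A limit what can be said there to large changes.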

Other observations

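In the cell type lists, the genes with the highest and lowest log2 ratio of F to A gave values that belong to no comparison of the antigen presentation genes. They were P2ry12 (2.62) and Aif1 (-0.91) for microglia, Folr2 (0.55) and Cbr2 (-2.76) for border macrophages, Slc2a1 (0.99) and Cldn5 (-1.52) for endothelium, and Lum (0.30) and Slc6a13 (-3.53) for meninges. For blood they were S100a9 (-1.46) and Hba-a1 (-3.64), for oligodendrocytes Mobp (5.71) and Opalin (4.19), for astrocytes Aqp4 (2.46) and Aldh1l1 (-0.23), and for neurons Syt1 (1.52) and Rbfox3 (-1.66). Flt3 (-1.02) was the single gene tested of the dendritic and lymphoid list. In pericytes and smooth muscle Pdgfrb was at 1.03, and Tagln, at 14.7 FPKM in A, was at 0 in C to F, where 0 can also stand for no entry.

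Limma called 6 microglia genes toward F and 2, C1qa and C1qb, toward A, of 13 tested, where 28.3% of all genes were called toward F and 8.20% toward A. Of 12 endothelial genes 1, Cldn5, was called toward A, of 7 pericyte and smooth muscle genes 3 toward A, of 10 meningeal genes 7 toward A and of 4 blood genes 2 toward A. Of 8 astrocyte genes 3 were called toward F and 1 toward A, and of 9 neuronal genes 5 toward F and 3 toward A. Limma called 0 of 4 border macrophage genes, of which 2 had an unadjusted p under 0.05. Under median-of-ratios scaling 4 endothelial genes were called toward A and 3 microglia genes toward A, where 2543 of all 17844 genes were called toward A.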
